A study of Oryza sativa with 6 samples.

Results

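The expression of 9 regulators of nitrogen response and nitrogen use was followed in rice roots, each gene taken by its gene identifier from a table of raw read counts. The 9 genes were OsNLP1 (Os03g0131100), OsIDD10 (Os04g0566400), OsGRF4 (Os02g0701300), OsNIGT1 (Os02g0325600), OsLBD37 (Os03g0445700), OsLBD38 (Os03g0609500), NGR5 (Os05g0389000), OsTCP19 (Os06g0226700) and DEP1 (Os09g0441900), out of 36844 genes in the table. All 9 identifiers were found, and 8 of the genes had enough reads to be compared between cultivars. The roots came from 2 elite cultivars, 9311 and HHZ (Huanghuazhan), with 3 replicate libraries each. Plants of both cultivars were grown hydroponically in a greenhouse at 27 °C, with 2 plants per container. The treatment began at 50 days after germination (DAG) and was the same for both, with 2 days in solution lacking NH4NO3 and then 3 h back in solution with 1 mM NH4NO3. No library was made without this resupply, so the values compare the cultivars in a single nitrogen state and do not show how a gene responds to nitrogen. How many plants went into a library is not given in the sources used here.

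Rice takes up nitrogen as nitrate and ammonium, and a small set of regulators adjusts uptake, assimilation and growth to the supply. NIN-like proteins such as OsNLP1 switch on nitrate-responsive genes, and repressors such as the NIGT1 and LBD families hold these genes down once nitrogen is plentiful. Other regulators link nitrogen to plant form: NGR5 and OsTCP19 act on tillering, OsGRF4 on growth together with nitrogen assimilation, and the G protein subunit DEP1 on panicle form and on the sensitivity of growth to nitrogen.

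NGR5 and OsLBD37 were higher in the roots of HHZ than in those of 9311, by about 2.26-fold and 2.78-fold. In each case every HHZ library lay above every 9311 library, as for 14.3% of all genes tested. With one library left out, the difference passed the threshold in 1 of 6 fits for NGR5 and in 2 of 6 for OsLBD37. Over the whole table, the fit without HHZ replicate 3 called 2724 genes and the others 761 to 1141, beside 1468 with all 6 libraries. For the other 6 genes tested, OsNLP1, OsIDD10, OsNIGT1, OsLBD38, OsTCP19 and DEP1, the cultivars overlapped and the difference did not pass the threshold. OsGRF4 was close to the limit of detection, with 1 to 5 reads per library.

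The libraries held 16622441 to 22646162 counts. Levels are given in CPM units, that is gene counts divided by the size of the library, scaled by the TMM method of edgeR, and 3 counts, taken here as the limit of detection, correspond to 0.128 to 0.175 CPM. CPM is not corrected for gene length, so levels are compared between cultivars and not between genes. In whole roots, fewer cells of a type and less RNA per cell cannot be told apart. Among the HHZ libraries, replicate 3 was the odd one out over the whole table. Its chi-square per degree of freedom against HHZ replicates 1 and 2 was 98.6 and 84.5, whereas that between replicates 1 and 2 was 22.3, and without it the number of differentially expressed genes in the whole table was 2724 instead of 1468. The root label was not checked against marker genes, because no table used here pairs marker names with these identifiers. Reads of both cultivars were counted on the japonica reference IRGSP-1.0, so a sequence difference between a cultivar and the reference can lower the counts of a gene.

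Of the 8 genes tested, 2 were differentially expressed (edgeR quasi-likelihood test, Benjamini-Hochberg adjusted p under 0.05 over all genes tested), both higher in HHZ. Over the 22554 genes of the table that could be tested, 6.51% were differentially expressed, 3.26% being higher in HHZ and 3.25% in 9311. For the same 2 of the 8 genes, all libraries of one cultivar lay above all of the other. This was the case for 27.2% of all genes tested, for 14.3% with HHZ the higher and for 13.0% with 9311 the higher. The median log2 fold change (9311 over HHZ) of the 8 genes was -0.19, beside -0.01 over all genes tested, and 5 of the 8 were fitted as higher in HHZ, beside 50.9% of all genes. With so few genes these shares do not set the regulators apart from the rest of the table.

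**Figure D1:**
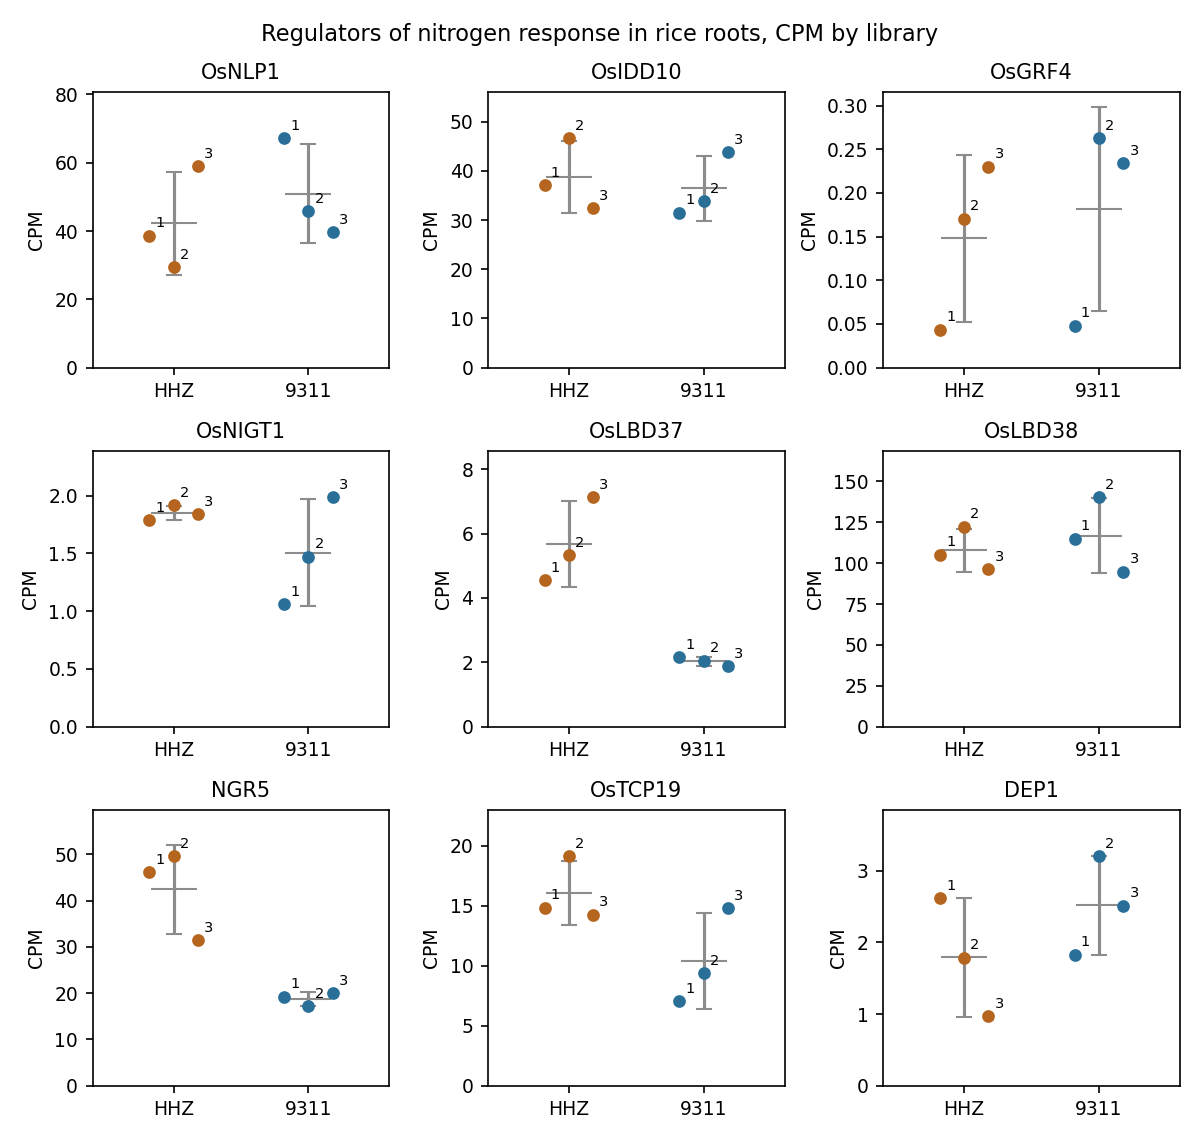
Expression of the 9 regulators in CPM (vertical axis, a scale of its own for each gene, starting at 0) in HHZ and 9311 roots. Points are libraries with their replicate number, and the grey bar and whiskers are the mean and SD of 3 libraries. The cultivars are separated for NGR5 and OsLBD37, while OsGRF4 reaches at most 0.263 CPM in any library.

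NGR5 encodes an AP2-domain transcription factor, also known as SMOS1 or RLA1, which in rice recruits the Polycomb repressive complex to genes that hold back branching and which is degraded in response to gibberellin. It was measured at 46.2, 49.7 and 31.5 CPM in HHZ replicates 1, 2 and 3. In 9311 the values were 19.3, 17.1 and 20.01 CPM. The 9311 libraries lay within a narrow band, and even the lowest HHZ library, replicate 3, was above all of them. The means were 18.8 ± 1.48 CPM in 9311 (SD, n = 3) and 42.4 ± 9.64 CPM in HHZ (SD, n = 3). The log2 fold change was -1.17 (standard error 0.191, 95% interval -1.63 to -0.72, adjusted p = 0.0167 in edgeR), which placed NGR5 at rank 811 of the 22554 genes by p. On the linear scale HHZ was 2.26-fold higher, with an interval of 1.64 to 3.10. The 9311 values rest on 326 to 400 counts and the HHZ values on 684 to 1166. Counting alone gives an SD of 0.077 on the log2 scale in 9311 and 0.048 in HHZ, where 0.116 and 0.353 were observed. Without HHZ replicate 3, the HHZ mean was 47.9 CPM and the log2 fold change -1.36, with an adjusted p of 0.00155 in edgeR. When another library was left out, each of the other 5 fits kept the log2 fold change between -1.05 and -1.22 but moved the adjusted p above the threshold, to between 0.0525 and 0.0851. Over all 15 alternatives the adjusted p lay between 1.4e-05, with DESeq2, and 0.0917, with replicate numbers as a block.

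The genes on either side of NGR5 in the table did not share its difference. Os05g0388600 was at 73.1 CPM in 9311 and 73.4 CPM in HHZ, and Os05g0389300 at 43.4 and 42.5 CPM (adjusted p = 0.99 and 0.91 in edgeR). Among 9445 other genes with a mean of at least 20 CPM, the pattern most like that of NGR5 over the 6 libraries was found for Os12g0263000 and then Os10g0446600. After centring each gene on its mean log2 CPM, they differed from NGR5 by a root mean square of 0.099 and 0.131 on the log2 scale. Os12g0263000 had 140, 174 and 109 CPM in HHZ replicates 1, 2 and 3 and 58.0, 52.5 and 59.6 CPM in 9311. Like NGR5, it was lowest in replicate 3 among the HHZ libraries and in replicate 2 among the 9311 libraries. Os10g0446600 had 63.3, 64.1 and 48.3 CPM in HHZ and 25.5, 28.8 and 29.5 CPM in 9311.

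OsTCP19 encodes a TCP-family transcription factor whose promoter varies among rice cultivars and modulates the tillering response to nitrogen. Its levels were 14.9, 19.2 and 14.3 CPM in HHZ and 7.03, 9.36 and 14.8 CPM in 9311, for replicates 1, 2 and 3. Replicates 1 and 2 of 9311 lay below all HHZ libraries, and only 9311 replicate 3 reached the HHZ range. The means were 10.4 ± 3.99 CPM in 9311 (SD, n = 3) and 16.1 ± 2.67 CPM in HHZ (SD, n = 3). The log2 fold change of -0.63 (standard error 0.290) had a 95% interval from -1.33 to 0.06, and with an adjusted p of 0.277 in edgeR the test was not passed. Without 9311 replicate 3 it was -0.97, with an adjusted p of 0.0812 in edgeR, the lowest of the 15 alternatives, which reached up to 0.567. The difference between the cultivars for OsTCP19 was therefore not resolved by these libraries, and a HHZ level up to 2.51-fold higher lies within the interval.

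**Figure D2:**
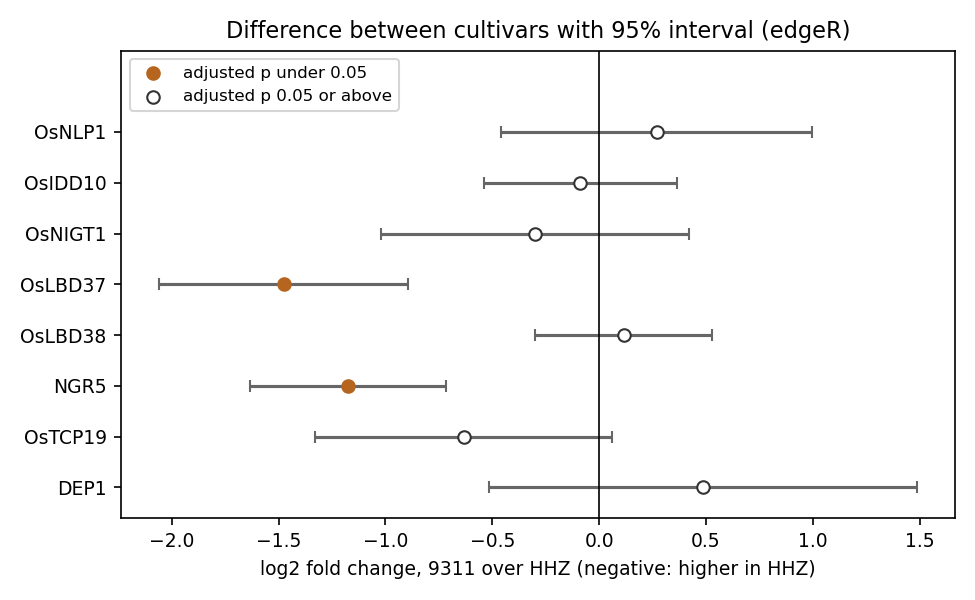
Log2 fold change of 9311 over HHZ (horizontal axis, negative where HHZ is higher) for the 8 regulators tested, with the 95% interval of the edgeR fit. Filled points have an adjusted p under 0.05. The intervals of OsLBD37 and NGR5 lie wholly below 0, and the other 6 include 0.

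OsLBD37 and OsLBD38 are LOB-domain transcription factors, relatives of the Arabidopsis proteins LBD37 and LBD38 that repress nitrogen-responsive genes. In rice, OsLBD37 is also known to bind and repress OsTCP19. OsLBD37 was measured at 4.54, 5.32 and 7.14 CPM in HHZ replicates 1, 2 and 3, and at 2.17, 2.05 and 1.87 CPM in the 9311 replicates. All 9311 libraries lay close together and below the lowest HHZ library. Their SD of 0.103 on the log2 scale was smaller than the 0.234 that counting alone gives for counts of this size, so the spread in 9311 is not well measured by these 3 libraries. The means were 2.03 ± 0.148 CPM in 9311 (SD, n = 3) and 5.67 ± 1.33 CPM in HHZ (SD, n = 3). The log2 fold change was -1.48 (standard error 0.243, 95% interval -2.06 to -0.90, adjusted p = 0.0172 in edgeR), at rank 836 of 22554 by p. HHZ was thus 2.78-fold higher, with an interval of 1.86 to 4.17. The gene is lowly counted, with 32 to 45 counts in a 9311 library and 104 to 155 in an HHZ library.

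In contrast to NGR5, the HHZ library that stood apart was the highest for OsLBD37. Without HHZ replicate 3 the HHZ mean was 4.93 CPM and the log2 fold change was -1.29, still under the threshold (adjusted p = 0.0186 in edgeR). The call was also kept without HHZ replicate 1 (adjusted p = 0.0304) and was lost without any one of the other 4 libraries, with adjusted p between 0.0598 and 0.0784 in edgeR. Over all 15 alternatives, the adjusted p lay between 4.2e-05 and 0.0994.

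The next tested gene after OsLBD37 in the table, Os03g0448500, which lies 3 rows away, was read in one cultivar only. It had 1053, 1179 and 856 counts in the HHZ libraries and 0 counts in every 9311 library, at least 258-fold higher in HHZ when 3 counts per library are taken as the limit in 9311. It was chosen for mention after its values were seen, as the only differentially expressed gene among the 18 nearest tested neighbours of the 9 regulators. A count of 1 in 18 is near the share of 6.51% over all genes tested. The tested gene before OsLBD37, Os03g0444900, had 9.7 CPM in 9311 and 9.38 CPM in HHZ (adjusted p = 0.915 in edgeR). OsLBD37 itself was read in all libraries of 9311. Whether the sequence around it differs between the cultivars was not tested.

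OsLBD38 did not follow OsLBD37. Its levels were 105, 122 and 96.1 CPM in HHZ and 115, 141 and 94.8 CPM in 9311, and the cultivars overlapped, with 9311 replicate 2 the highest of all 6 libraries. The means were 117 ± 22.9 CPM in 9311 (SD, n = 3) and 108 ± 13.3 CPM in HHZ (SD, n = 3). The log2 fold change of 0.11 (adjusted p = 0.759 in edgeR, standard error 0.173) had an interval of -0.30 to 0.53, so a change of the size fitted for OsLBD37 lies outside it. Its sign was not stable, turning to -0.03 when counts were scaled by library totals only and to -0.05 without 9311 replicate 2.

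The 2 LBD genes can also be compared inside each library, where the scaling between libraries cancels. Per 100 counts on OsLBD38 there were 4.32, 4.35 and 7.42 counts on OsLBD37 in HHZ replicates 1, 2 and 3, and 1.88, 1.46 and 1.98 in 9311. The ratio was higher in all HHZ libraries than in any 9311 library. On the log2 scale it was -4.27 ± 0.448 (SD, n = 3) in HHZ and -5.83 ± 0.235 (SD, n = 3) in 9311, a difference of -1.56 for 9311 minus HHZ (exact permutation test, two-sided, p = 0.1, the smallest that 3 libraries against 3 can give). This ratio was chosen after the values of both genes were seen.

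OsNIGT1, a GARP-type transcription repressor induced by nitrate, was low in both cultivars. It had 41, 45 and 40 counts in HHZ replicates 1, 2 and 3, or 1.79, 1.92 and 1.84 CPM. In 9311 it had 22, 28 and 34 counts, or 1.06, 1.47 and 1.99 CPM. As for OsTCP19, 9311 replicates 1 and 2 lay below all HHZ libraries and 9311 replicate 3 did not. The means were 1.51 ± 0.466 CPM in 9311 (SD, n = 3) and 1.85 ± 0.063 CPM in HHZ (SD, n = 3). The log2 fold change was -0.30 (standard error 0.301, 95% interval -1.02 to 0.42, adjusted p = 0.627 in edgeR). Without 9311 replicate 3 it was -0.55 (adjusted p = 0.373 in edgeR), and without 9311 replicate 1 it was -0.11 (adjusted p = 0.899), the lowest and highest p over the 15 alternatives. The HHZ replicates agreed more closely than counting alone would give on average, with an SD of 0.048 on the log2 scale where counts of this size give 0.223. In 9311 the SD was 0.449, against 0.277 from counting. A difference of the size fitted here was not resolved by these libraries.

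OsNLP1, a NIN-like protein that activates nitrate-responsive genes, varied more between replicates than any other regulator tested except DEP1. It was at 38.7, 29.3 and 58.9 CPM in HHZ and at 67.2, 45.8 and 39.7 CPM in 9311, for replicates 1, 2 and 3. The highest HHZ library was replicate 3, which lay above 2 of the 3 libraries of 9311. The means were 50.9 ± 14.5 CPM in 9311 (SD, n = 3) and 42.3 ± 15.1 CPM in HHZ (SD, n = 3). The log2 fold change was 0.27 (standard error 0.303, 95% interval -0.46 to 1.00, adjusted p = 0.672 in edgeR). Its size depended on the libraries included. Without HHZ replicate 3 the HHZ mean was 34.0 CPM, the cultivars no longer overlapped and the log2 fold change was 0.57 (adjusted p = 0.202 in edgeR), whereas without 9311 replicate 1 it was 0.01 (adjusted p = 0.995). Without HHZ replicate 2 it was 0.06, and without 9311 replicate 3 it was 0.42. Its adjusted p lay between 0.202 and 0.995 over the 15 alternatives. With 679 to 1397 counts per library, counting accounts for an SD of only 0.048 on the log2 scale in each cultivar, beside observed values of 0.393 in 9311 and 0.506 in HHZ.

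OsIDD10 is an INDETERMINATE DOMAIN zinc finger factor that in rice roots activates ammonium transport and assimilation genes. Its levels were 37.1, 46.7 and 32.4 CPM in HHZ and 31.5, 33.9 and 43.9 CPM in 9311. The ranges of the cultivars nearly coincided. The means were 36.4 ± 6.55 CPM in 9311 (SD, n = 3) and 38.7 ± 7.29 CPM in HHZ (SD, n = 3), which gave a log2 fold change of -0.09 (standard error 0.188, 95% interval -0.54 to 0.36, adjusted p = 0.832 in edgeR). Its sign turned without HHZ replicate 2, to 0.07. The interval leaves out differences between the cultivars beyond 1.29-fold toward 9311 and 1.45-fold toward HHZ.

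OsGRF4, a growth-regulating factor known to promote nitrogen uptake and assimilation together with growth, gave 1, 4 and 5 counts in HHZ replicates 1, 2 and 3 and 1, 5 and 4 counts in 9311. These are 0.0437 to 0.230 CPM in HHZ and 0.0481 to 0.263 CPM in 9311. Some libraries lay below the limit of 3 counts and none far above it. The exact Poisson interval of a single count reaches from 0.0253 to 5.57 counts and that of 5 counts from 1.62 to 11.7, for counting error only. With 20 counts in all, the gene did not pass the filter on low counts, and a difference between the cultivars in OsGRF4 was not detectable in these roots. With no filter, its unadjusted p in edgeR was 0.767.

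DEP1 encodes a gamma subunit of the heterotrimeric G protein, known from dense and erect panicles and from its effect on the nitrogen response of growth. It was counted 60, 42 and 21 times in HHZ and 38, 61 and 43 times in 9311, which are 2.62, 1.79 and 0.967 CPM and 1.83, 3.21 and 2.52 CPM. The HHZ libraries spread over a wider range than those of 9311, with replicate 3 the lowest of all 6. The means were 2.52 ± 0.689 CPM in 9311 (SD, n = 3) and 1.79 ± 0.827 CPM in HHZ (SD, n = 3), with a fitted log2 fold change of 0.49 (adjusted p = 0.568 in edgeR, standard error 0.418). Its 95% interval, from -0.51 to 1.49, was the widest of the 8 genes. Without HHZ replicate 3 the log2 fold change was 0.18, without 9311 replicate 2 it was 0.27, and without HHZ replicate 1 it was 0.86. The adjusted p lay between 0.369 and 0.855 over the 15 alternatives.

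**Figure D3:**
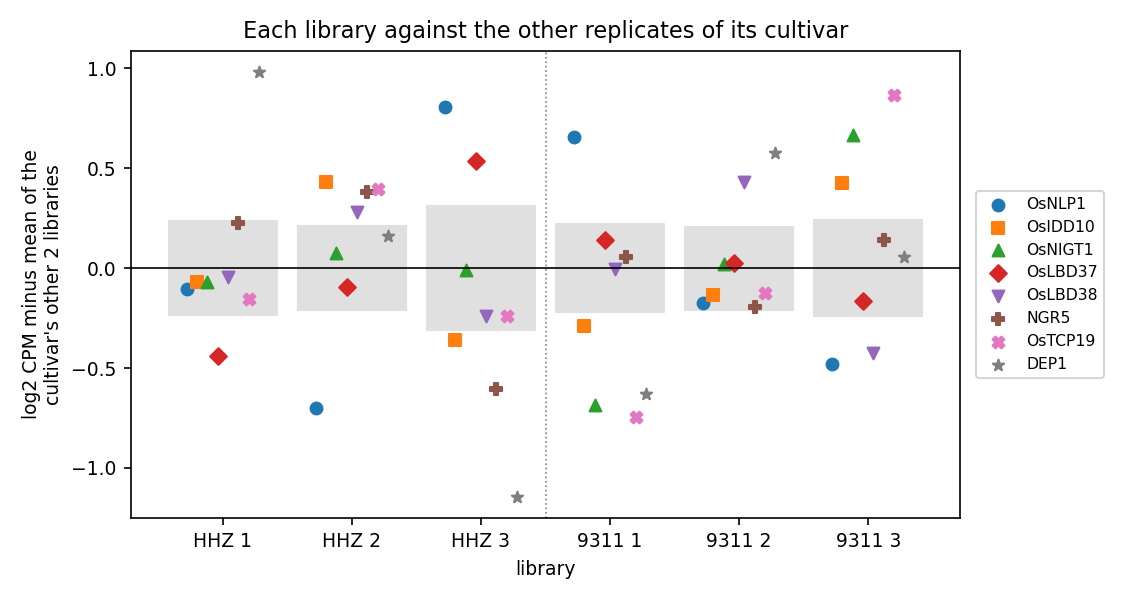
Log2 CPM of each of the 8 tested regulators in a library minus the mean of the other 2 libraries of its cultivar (vertical axis), by library (horizontal axis). Grey boxes span the median absolute value over all genes tested, which was widest in HHZ replicate 3, at 0.309. In that library OsNLP1 and OsLBD37 were above the box and OsIDD10, NGR5 and DEP1 below it.

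The regulators differed in how they varied among replicates of a cultivar. The SD on the log2 scale, pooled over the cultivars, was lowest for OsLBD38 at 0.236, OsLBD37 at 0.244, OsIDD10 at 0.259 and NGR5 at 0.262. It was higher for OsNIGT1 at 0.319, OsTCP19 at 0.416, OsNLP1 at 0.453 and DEP1 at 0.580. The median of the 8 genes was 0.291, beside 0.269 over all genes tested. HHZ replicate 3 took the highest or lowest place among the HHZ libraries for 7 of the 8 genes, beside 78.9% of all genes tested. It was above the mean of the other HHZ libraries by 0.81 for OsNLP1 and 0.54 for OsLBD37 on the log2 scale. It was at -0.60 against them for NGR5, at -0.36 for OsIDD10 and at -1.14 for DEP1, where the median absolute shift of all genes in that library was 0.309. In 9311, replicate 3 held an end place for 7 of the 8 genes and replicate 1 for 6, beside 70.7% and 65.7% of all genes. Replicate 3 was above the others by 0.87 for OsTCP19 and 0.66 for OsNIGT1, and it was the library through which these genes overlapped between the cultivars. For OsTCP19 the overlap rested on HHZ replicate 3 as well, since the cultivars did not overlap without that library.

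**Figure D4:**
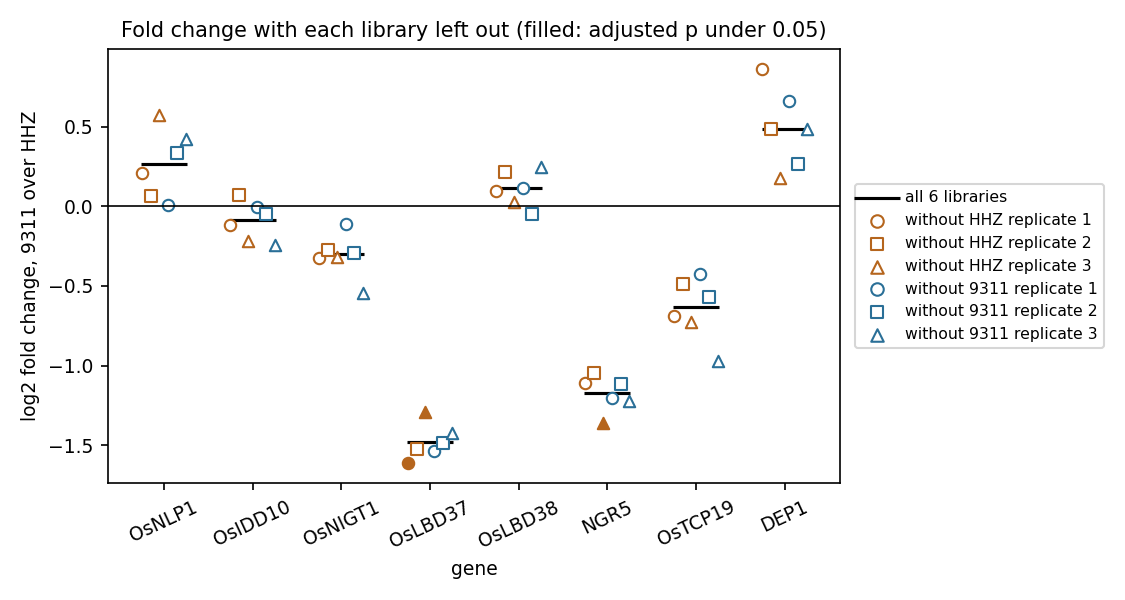
Log2 fold change of 9311 over HHZ (vertical axis) for the 8 regulators (horizontal axis) with all 6 libraries (black bar) and with each library left out in turn (symbols), filled where the adjusted p in edgeR was under 0.05. NGR5 and OsLBD37 stay below -1 in every fit, while the signs of OsLBD38 and OsIDD10 turn in 1 fit each.

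Of other genes of nitrogen metabolism, 5 are tied to nitrogen annotation by identifier in the sources used here, and of these 2 were differentially expressed, both higher in 9311. Os01g0760600 was at 249 CPM in 9311 and 98.2 CPM in HHZ (log2 fold change 1.35, adjusted p = 0.0167 in edgeR) and Os03g0707900 at 44.3 and 31.0 CPM (0.51, adjusted p = 0.0445). The other 3 had log2 fold changes of 1.83 (Os06g0548000), 0.56 (Os02g0236000) and -1.28 (Os10g0155400), with adjusted p between 0.0544 and 0.0803. The number called among these 5 depended on the fit, with 5 in DESeq2, 0 with replicate numbers as a block and 0 to 4 in edgeR without one library. These genes were picked by the study among genes that differed in the same libraries, so their direction is not independent evidence. NGR5 and OsLBD37, the 2 regulators that passed the test, were higher in HHZ, as was Os10g0155400 by its fitted value. The study reports nitrogen metabolism genes higher in either cultivar, so direction does not separate the regulators from the metabolism genes. Genes of nitrate and ammonium uptake and assimilation known by name only were not analysed here.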

How the data were processed

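RNA of roots of 9311 and HHZ was sequenced by the authors in 3 libraries per cultivar. After adaptor trimming, the authors used STAR with IRGSP-1.0 and the Ensembl Plants annotation, and deposited 1 column of raw gene counts for each library, without normalization or pooling. The submitters' processing notes give STAR 2.5.3a, and the methods of the study name another version. The strand setting and annotation release are not given in the sources used here, so counts of overlapping or antisense genes are uncertain. Whether the replicates were separate plants or pools is not stated, and the p-values measure only the spread between these libraries.

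From the counts, cultivars were compared in edgeR 4.0.16 (R 4.3.3) over all genes passing filterByExpr (minimum count 10), with TMM scaling, a quasi-likelihood test, cultivar as the only term, and Benjamini-Hochberg adjustment over all genes tested (threshold 0.05). Standard errors are the log2 fold change divided by the square root of F, and 95% intervals use the t distribution of the fit. For spreads, 0.5 counts were added before log2. As alternatives, limma-voom (limma 3.58.1) and DESeq2 1.42.0 were run, with other scalings and filters, robust dispersion, a threshold of 0.1, replicate numbers as a block and each library left out. The fits were tested on simulated counts. The genes named are the 9 regulators, the 5 nitrogen-annotated identifiers and the 2 genes most like the regulator with the smallest p. The table neighbours of NGR5 and OsLBD37 were named after their values were seen. The regulators and lists were chosen with earlier results of these data known. Gene names were given with the identifiers. In a RefSeq table of 39387 genes (ASM3414082v1), 4 of the 9 names were found, each on the chromosome that the identifier gives, and 0 of the 9 identifiers. For NGR5 the search included its other names, SMOS1 and RLA1. The 31 further identifiers listed for uptake, assimilation and tissue markers could not be paired with names and were not used.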

Additional observations from a re-analysis of the deposited data

How the results depend on the processing

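Of the 120 fold changes of single regulators recomputed under alternatives, 106 kept their direction and their side of the threshold, 11 lost a call, all of NGR5 or OsLBD37, and 3 turned sign, OsLBD38 with library totals only (-0.026) and without 9311 replicate 2 (-0.046) and OsIDD10 without HHZ replicate 2 (0.068). Without one library, OsLBD38 lay between -0.046 and 0.246 and OsIDD10 between -0.242 and 0.068. Scaling by library totals put the median of all genes at -0.13 on the log2 scale. NGR5 and OsLBD37 were differentially expressed with all 6 libraries under every alternative tool, scaling, filter and threshold run, and neither was with the replicate block, where 0 regulators and 0 of the 5 other nitrogen genes passed. The number of regulators called lay between 0 and 2 in the fits without one library, and that of the 5 other nitrogen genes between 0 and 4, where all 6 libraries gave 2. DESeq2 called 5 of these 5 and the filter that asks every library for 10 counts or more 1. The number of regulators without overlap between the cultivars was 2, and 2 to 4 when a library was left out, where 32.3% to 46.6% of all genes tested did not overlap.

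Over the whole table, 1468 genes were called (733 higher in 9311 and 735 in HHZ). DESeq2 gave 2885 (1476 and 1409), that stricter filter 563 (276 and 287), and a threshold of 0.1 gave 2287 (1127 and 1160). The replicate block gave 470 (234 and 236), and the fits without one library 761 to 2724 (385 to 1591 and 376 to 1133). The causes of these differences in number were not tested. Libraries with the same replicate number were not found to be paired, since their deviations from the cultivar's mean correlated at -0.106, 0.0823 and -0.117 across genes. Between libraries of the 2 cultivars with different numbers, the correlations ranged from -0.362 to 0.297. OsGRF4, OsNIGT1 and DEP1 had at most 61 counts per library, but for DEP1 the SDs of 0.403 and 0.714 on the log2 scale in 9311 and HHZ exceeded those from counting, 0.214 and 0.247. For OsNIGT1 the SD exceeded that from counting in 9311 (0.449 against 0.277) and not in HHZ (0.048 against 0.223). For OsGRF4 the SDs of 1.12 in 9311 and 1.03 in HHZ were near the 1.00 from counting.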

Other observations

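Within each cultivar, the order of the libraries for OsNLP1 was the reverse of that for OsTCP19 and OsIDD10. In HHZ, OsNLP1 was lowest in replicate 2 (29.3 CPM) and highest in replicate 3 (58.9 CPM), while OsTCP19 (19.2 and 14.3 CPM) and OsIDD10 (46.7 and 32.4 CPM) were highest in replicate 2 and lowest in replicate 3. In 9311, OsNLP1 was highest in replicate 1 (67.2 CPM) and lowest in replicate 3 (39.7 CPM), while OsTCP19 (7.03 and 14.8 CPM) and OsIDD10 (31.5 and 43.9 CPM) were lowest in replicate 1 and highest in replicate 3. Of the 7 regulators compared with OsNLP1, 2 had the reverse order in both cultivars and 0 the same order, beside 5.68% and 5.50% of 22553 genes. This was seen in the data first, rests on 3 libraries per cultivar and is given as a description without a test. The libraries at the ends of this order were also related over all genes tested. Deviations from the cultivar's mean in 9311 replicate 1 correlated at 0.297 with HHZ replicate 3 and at -0.362 with HHZ replicate 2. Those of 9311 replicate 3 and HHZ replicate 2 correlated at 0.251. Whether the order of the 3 regulators follows from this was not tested.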
